A study of Mus musculus with 70 samples.

Results

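The genes described here are 10 genes used as markers of lipid-laden and scar-type macrophages: Spp1, Mmp12, Gpnmb, Trem2, Cd9, Lgals3, Fabp5, Lpl, Plin2 and Apoe. They were chosen by name, as the rows of the count table that carry these symbols, and are 10 of 24420 genes in the table. The choice was made with earlier results of these data known. Their RNA was measured by RNA sequencing in a piece of lung from each of 70 male mice. The mice were bred from heterozygous parents of the 129S-Slc26a4tm1Erg/AjgJ strain, and each was either a homozygous knockout or a homozygous wildtype for Slc26a4, which encodes pendrin, an anion exchanger of the airway epithelium. At about 3 months of age they breathed crystalline silica dust (Min-U-Sil5) at 15 mg/m3 or air in whole-body chambers, for 6 hours on each of 4 days, and lungs were taken 1 day, 3 months or 9 months afterwards. The 12 groups are therefore knockout silica, knockout air, wildtype silica and wildtype air at each time, with 6 mice in each group except wildtype silica and wildtype air at 9 months, which have 5 mice each. All groups share the 129S background and the sex. In whole lung, fewer cells of a type and less RNA per cell cannot be told apart.

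Macrophages clear inhaled particles and the surfactant lipid that fills the air spaces. A macrophage that takes up more lipid than it can export stores it in droplets and becomes a foam cell. Cells of this kind switch on a shared set of genes that includes a secreted matrix protein (Spp1), a matrix protease (Mmp12), lysosomal and surface glycoproteins (Gpnmb, Trem2, Cd9), a lectin (Lgals3) and proteins that bind, release, store or export lipid (Fabp5, Lpl, Plin2, Apoe). In fibrotic human and mouse lung, macrophages that carry SPP1, GPNMB, FABP5, TREM2 and CD9 are described next to scar tissue. None of the 10 genes is restricted to macrophages: Cd9, Apoe, Lpl, Plin2 and Lgals3 are also made by epithelial, endothelial, fat or muscle cells of the lung.

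Library totals ran between 802478 and 5596316 counts, with a median of 2183480, and levels are given as normalised CPM, the counts of a gene scaled to 1000000 counts of a library after TMM scaling. Alveolar type 2 cell markers, such as the surfactant protein gene Sftpc, summed to between 11252 and 15627 normalised CPM in the 70 libraries, so each holds RNA of lung tissue. Slc26a4 ranged over 6.01 to 20.5 normalised CPM in knockout silica mice and 24.7 to 69.6 in wildtype silica mice at 1 day, and over 3.38 to 36.4 and 43.0 to 73.8 at 3 months; the ranges of the genotypes did not overlap in silica mice at any time. In air mice it was 0.982 to 3.24 in knockouts and 4.22 to 12.6 in wildtypes at 1 day, and 1.06 to 3.08 and 9.08 to 15.0 at 3 months. At 9 months 4 knockout air mice had 1.32 to 3.71, replicate 5 had 16.8 and replicate 4 had 51.7, while 4 wildtype air mice had 6.42 to 21.6 and replicate 5 had 74.2. Knockout air replicates 4 and 5 thus lay above or among the wildtype air mice. Replicate 4 was above every other knockout mouse of the study, so Slc26a4 does not bear out its genotype label. Wildtype air replicate 5 was likewise far above the other mice of its group, and the label was not tested further. Replicate 4 is called the library labelled knockout air replicate 4 below. The labels do not say which part of Slc26a4 is deleted, and the row counts any transcript that remains. The 3 air mice of 9 months with the raised Slc26a4 (the library labelled knockout air replicate 4, knockout air replicate 5 and wildtype air replicate 5) also had the highest sums of general macrophage markers of all 70 libraries. Other mice that stood apart were knockout silica replicate 3 of 3 months and wildtype silica replicate 5 of 9 months, the highest of their groups in 9 and 7 of the 10 genes.

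The promoters of Spp1, Gpnmb and Mmp12 are shown because these genes had the largest silica effects of the 10. They come from the RefSeq promoter table of build GRCm38.p6, each with 250 bases before and 50 bases after an annotated start of the gene, and capitals mark the motif matches. Promoters of 8 of the 10 genes were matched, in 12 windows of 300 bases. No window was matched for Fabp5 or Lpl.
Spp1 first start site, chr5:104434861-104435160, plus strand: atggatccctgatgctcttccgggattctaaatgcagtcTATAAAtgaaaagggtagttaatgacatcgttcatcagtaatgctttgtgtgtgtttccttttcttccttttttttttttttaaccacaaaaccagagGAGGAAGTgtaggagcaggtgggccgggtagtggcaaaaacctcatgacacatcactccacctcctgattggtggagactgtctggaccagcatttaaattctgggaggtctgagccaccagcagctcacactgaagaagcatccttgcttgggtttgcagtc
Gpnmb, chr6:49036268-49036567, plus strand: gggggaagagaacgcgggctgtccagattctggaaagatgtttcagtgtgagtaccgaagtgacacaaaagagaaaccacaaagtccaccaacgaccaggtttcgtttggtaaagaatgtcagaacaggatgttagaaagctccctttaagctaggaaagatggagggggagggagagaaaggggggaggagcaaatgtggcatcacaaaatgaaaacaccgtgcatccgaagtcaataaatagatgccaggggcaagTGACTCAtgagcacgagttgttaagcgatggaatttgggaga
Mmp12 first start site, chr9:7344147-7344446, plus strand: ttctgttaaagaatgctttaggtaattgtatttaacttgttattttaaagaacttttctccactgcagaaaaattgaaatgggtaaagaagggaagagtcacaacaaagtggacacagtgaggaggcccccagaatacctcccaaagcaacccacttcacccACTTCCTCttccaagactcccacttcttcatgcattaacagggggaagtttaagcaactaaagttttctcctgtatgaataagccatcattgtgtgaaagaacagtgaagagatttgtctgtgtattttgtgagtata
Mmp12 second start site, chr9:7347124-7347423, plus strand: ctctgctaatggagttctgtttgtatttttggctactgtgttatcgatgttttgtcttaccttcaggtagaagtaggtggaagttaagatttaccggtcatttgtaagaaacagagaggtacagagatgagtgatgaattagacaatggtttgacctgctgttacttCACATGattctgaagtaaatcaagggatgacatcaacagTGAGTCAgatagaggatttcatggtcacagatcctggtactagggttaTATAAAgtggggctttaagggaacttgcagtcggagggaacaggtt
Both strands were searched for 5 motifs. The letters of an AP-1 site were TGANTCA. Those of the E-box bound by MITF and TFE factors were CACGTG, and those of the core of the M-box CATGTG. A PU.1 site was searched as GAGGAAGT and the TATA box as TATAAA. Spp1 holds the PU.1 letters 113 bases before its first start site and TATAAA 211 bases before it. The window of its second start site, which is not shown, holds 0 matches. Gpnmb holds the AP-1 letters TGACTCA from base 9 after its start. Mmp12 holds the PU.1 letters on the minus strand 88 bases before its first start site. Its second start site has the AP-1 letters TGAGTCA 44 bases before the start, the M-box core on the minus strand 83 bases before it and TATAAA from base 5 after it. Of the other members, Trem2 holds an AP-1 match, Cd9 an M-box core, Plin2 a CACGTG and Apoe a TATAAA. Among 32851 RefSeq mouse promoters of the same length, 7.81% hold the AP-1 letters, 7.15% the E-box, 14.2% the M-box core, 3.2% the PU.1 letters and 13.6% the TATA letters. The matches overlap no other motif searched, and a match is a run of letters, not evidence of binding.

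Spp1, Mmp12, Gpnmb and Fabp5 were higher in silica mice than in air mice in both genotypes at 1 day and at 3 months. Mmp12 differed most: its fitted level in silica mice was 21.5 times that of air mice in knockouts and 12.7 times in wildtypes at 3 months, and without knockout silica replicate 3 the knockout value was 12.3 times. Spp1 and Gpnmb were the next, while Cd9 and Plin2 passed the threshold in neither genotype at either time. At 9 months no member passed the threshold, and 3 of the 11 air mice had more Spp1 than any knockout silica mouse of that time. Knockout and wildtype mice did not differ past the threshold in any member tested at any time, and Trem2 was not tested at 1 day. A gene was called higher or lower at an adjusted p under 0.05 in edgeR's quasi-likelihood test, with Benjamini-Hochberg adjustment over all genes tested at that time.

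**Figure D1:**
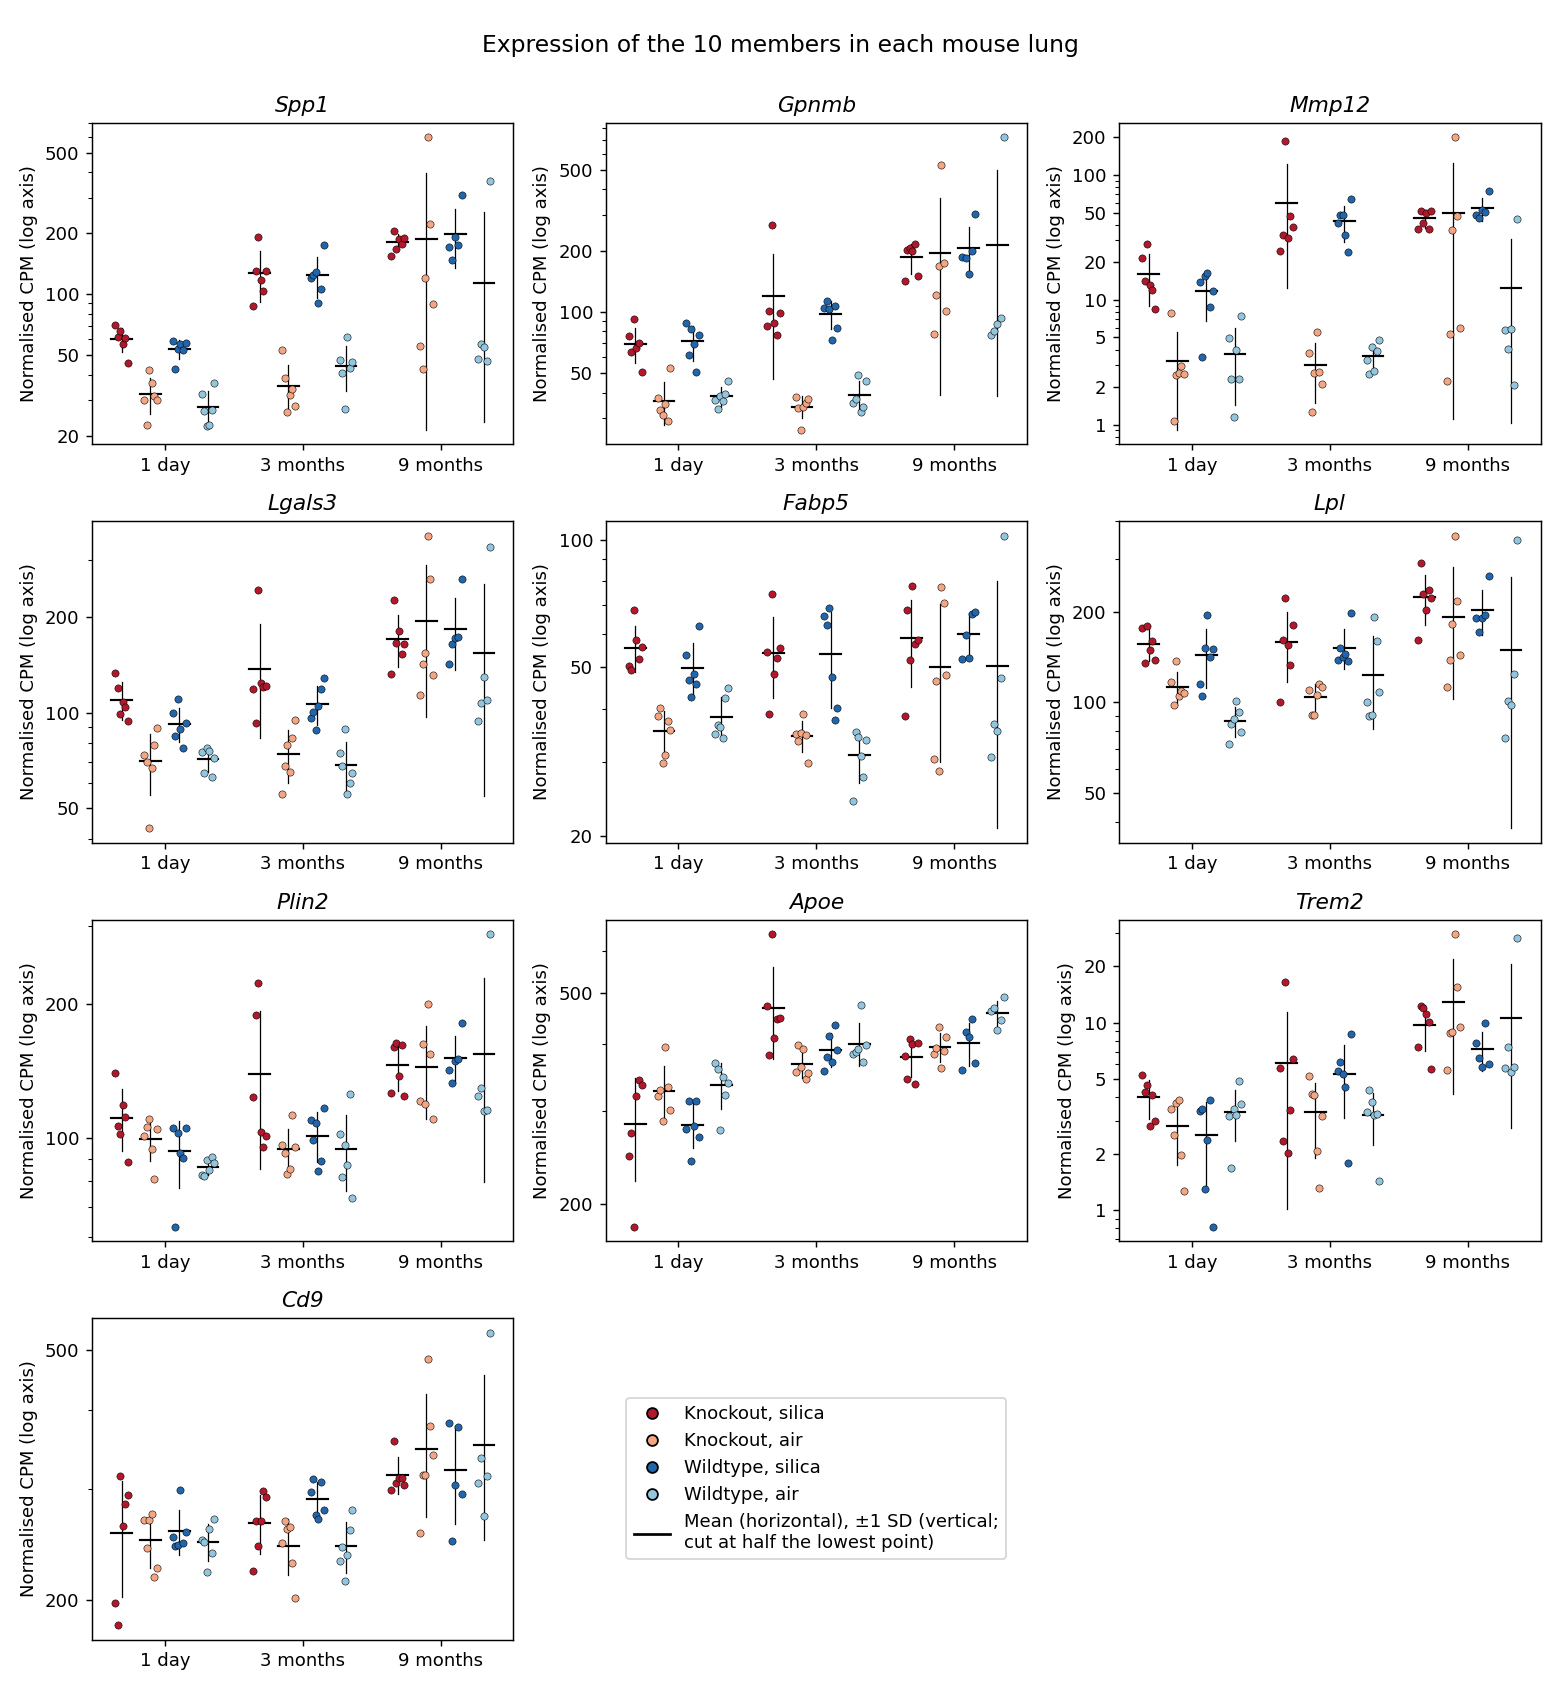
Levels of the 10 genes in every mouse, in normalised CPM on log axes, by time and, within each time, knockout silica, knockout air, wildtype silica and wildtype air. Each point is 1 mouse and lines give the mean and SD. Mmp12 lies at 1.08 to 7.81 normalised CPM in knockout air mice at 1 day and reaches 200.5 in the library labelled knockout air replicate 4 at 9 months.

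The share of members called was read against the share of all genes called. The members were chosen with earlier results of these data known, so the 2 shares describe them and are no independent test. At 1 day, 6 of the 9 members tested were higher in knockout silica mice, where 1.7% of 12558 genes were, and 5 of 9 in wildtype silica mice, where 1.95% were. Trem2 was too low to be tested at 1 day. In a single fit of all 70 libraries, in which the spread of the 9-month mice enters every test, 0 members were called at 1 day, and these 11 calls had adjusted p of 0.0656 to 0.378. At 3 months, 7 of 10 members were higher in knockout silica mice, against 3.02% of 12647 genes, and 5 of 10 in wildtype silica mice, against 2.24%. No member was called lower in these 4 comparisons, where 0.223% (knockouts) and 0.422% (wildtypes) of all genes were lower at 1 day and 1.78% and 0.72% at 3 months. The median log2 fold change of the members tested was 0.61 in knockouts and 0.40 in wildtypes at 1 day, and 0.79 and 0.66 at 3 months; the median of all genes lay within 0.01 of 0. Every silica mouse stood above every air mouse for 4 of 9 members in knockouts at 1 day (1.04% of all genes) and 4 of 9 in wildtypes (2.05%). At 3 months this held for 3 of 10 members in knockouts (1.45%) and 4 of 10 in wildtypes (1.78%).

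**Figure D2:**
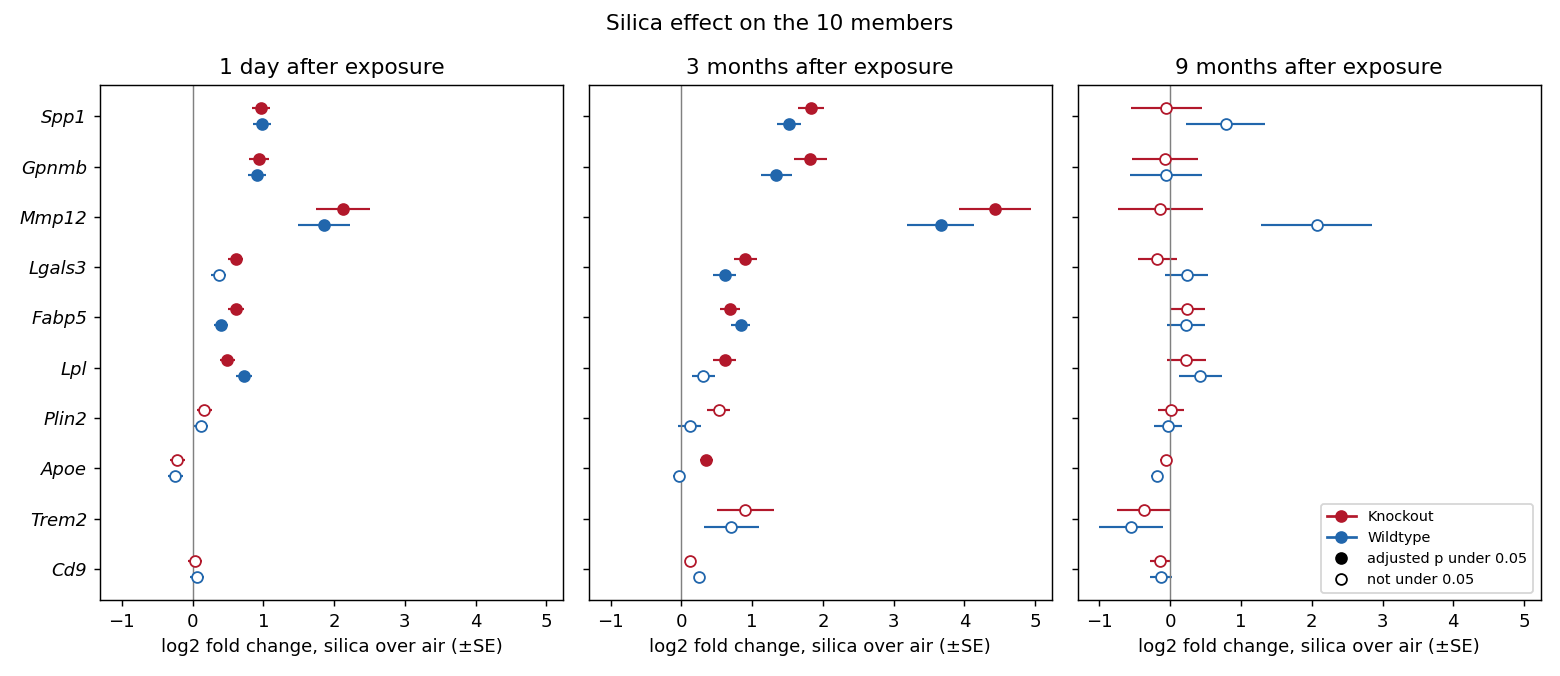
Log2 fold change of silica over air mice (x axis, points with SE bars) for each of the 10 genes, in knockouts and wildtypes, with a panel for each time. Filled points have an edgeR adjusted p under 0.05; Mmp12 has the largest values, 4.43 in knockouts and 3.66 in wildtypes at 3 months, and no point of 9 months is filled. Trem2 has no point at 1 day, where it was not tested.

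Spp1 encodes osteopontin, a secreted phosphoprotein that binds CD44 and integrins (chromosome 5, 104435118 to 104441050, plus strand, GRCm38). At 1 day it was 45.7 to 70.1 (median 60.9) normalised CPM in knockout silica mice and 22.6 to 42.1 (median 30.8) in knockout air mice. In wildtypes it was 42.8 to 58.6 (median 55.2) in silica mice and 22.3 to 36.4 (median 26.6) in air mice. Every silica mouse lay above every air mouse of its genotype, and the log2 fold changes of 0.96 (SE 0.13), adjusted p = 7.88e-06 in knockouts and 0.98 (SE 0.12), adjusted p = 2.09e-06 in wildtypes (edgeR) were nearly equal. At 3 months after exposure the level was 87.8 to 191 (median 124) in knockout silica mice, against 26.3 to 52.8 (median 32.9) in knockout air mice. Wildtype mice had 90.4 to 175 (median 122) after silica and 27.2 to 61.4 (median 44.7) after air. The groups again did not overlap, with log2 fold changes of 1.83 (SE 0.18), adjusted p = 3.45e-08 in knockouts and 1.52 (SE 0.17), adjusted p = 3.22e-07 in wildtypes. At 9 months knockout silica mice had 155 to 205 (median 183) normalised CPM and knockout air mice 42.8 to 596 (median 104). The 5 wildtype silica mice had 147, 171, 175, 191 and 309, and the 5 wildtype air mice 46.5, 47.8, 55.1, 56.8 and 364. All silica mice stood above 4 of the 5 wildtype air mice and were exceeded by the fifth, and the log2 fold changes were -0.05 (SE 0.50), adjusted p = 0.987 in knockouts and 0.78 (SE 0.56), adjusted p = 0.830 in wildtypes.

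Mmp12 encodes macrophage metalloelastase, a protease that cleaves elastin (chromosome 9, 7344381 to 7369499, plus strand). It was nearly silent in young air mice, with counts as low as 2 in a library. At 1 day it was 8.42 to 28.1 (median 13.6) normalised CPM in knockout silica mice and 1.08 to 7.81 (median 2.57) in knockout air mice, and 3.49 to 16.5 (median 12.9) in wildtype silica mice and 1.16 to 7.38 (median 3.13) in wildtype air mice. Knockout groups did not overlap and wildtype groups did, and both fold changes passed the test, at 2.12 (SE 0.38), adjusted p = 6.27e-04 in knockouts and 1.86 (SE 0.37), adjusted p = 0.00208 in wildtypes. Levels at 3 months were 24.8 to 186 (median 35.8) in knockout silica mice and 1.26 to 5.55 (median 2.61) in knockout air mice. They were 24.2 to 63.8 (median 44.4) in wildtype silica mice and 2.56 to 4.76 (median 3.61) in wildtype air mice. Not one silica mouse fell within the air range of its genotype, and the log2 fold changes were 4.43 (SE 0.51), adjusted p = 4.63e-07 in knockouts and 3.66 (SE 0.47), adjusted p = 3.73e-06 in wildtypes. The highest knockout value, 186, came from replicate 3, and without it the knockout log2 fold change was 3.62 (SE 0.26), still past the threshold. After 9 months the level was 37.1 to 51.8 (median 45.7) in knockout silica mice, and 2.22, 5.29, 5.92, 36.0, 47.2 and 200.5 in knockout air mice. Wildtype silica mice had 45.5, 47.7, 50.8, 52.5 and 74.7, and wildtype air mice 2.08, 4.02, 5.71, 5.89 and 44.8. In wildtypes every silica mouse was above every air mouse, by less than 1 normalised CPM at the nearest pair, and the log2 fold change of 2.07 (SE 0.78), adjusted p = 0.602 did not pass; in knockouts it was -0.14 (SE 0.60), adjusted p = 0.971. Mmp12 was the 1 member of 10 without overlap in wildtypes at 9 months, where 0.741% of all genes had none; in knockouts 0 of 10 had none, against 0.398%.

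Gpnmb encodes a transmembrane glycoprotein of lysosomes and the cell surface (chromosome 6, 49036546 to 49070929, plus strand). Its 1-day levels were 50.5 to 92.1 (median 68.1) normalised CPM in knockout silica mice and 29.0 to 52.7 (median 34.0) in knockout air mice. Wildtype mice had 50.6 to 88.3 (median 73.2) after silica and 33.4 to 45.7 (median 37.5) after air. The wildtype groups were apart, the knockout groups overlapped through 1 mouse at each edge, and the log2 fold changes were 0.94 (SE 0.14), adjusted p = 4.22e-05 in knockouts and 0.91 (SE 0.13), adjusted p = 1.71e-05 in wildtypes. By 3 months levels were 77.2 to 267 (median 93.5) in knockout silica mice and 26.3 to 38.2 (median 34.8) in knockout air mice, and 73.0 to 113 (median 104) in wildtype silica mice and 32.0 to 48.9 (median 36.3) in wildtype air mice. No silica mouse overlapped the air mice of its genotype. The log2 fold changes were 1.82 (SE 0.23), adjusted p = 2.54e-06 in knockouts, or 1.38 (SE 0.12) without replicate 3, and 1.34 (SE 0.22), adjusted p = 1.72e-04 in wildtypes. At 9 months Gpnmb was 142 to 215 (median 200.5) in knockout silica mice and 77.9 to 529 (median 144) in knockout air mice. Wildtype silica mice had 153, 184, 187, 199 and 303 and wildtype air mice 77.1, 80.3, 87.1, 93.0 and 722. The wildtype air mice held both the lowest 4 values of the genotype and the highest 1, and the fold changes of -0.07 (SE 0.47), adjusted p = 0.985 in knockouts and -0.06 (SE 0.51), adjusted p = 0.989 in wildtypes did not pass.

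Trem2 encodes a lipid-sensing surface receptor that signals through the adaptor TYROBP (chromosome 17, 48346401 to 48354147, plus strand), and it was the lowest of the members on the scale of normalised CPM, with counts as low as 2. At 3 months it was 2.03 to 16.5 (median 4.58) normalised CPM in knockout silica mice and 1.32 to 5.19 (median 3.66) in knockout air mice, and 1.79 to 8.70 (median 5.43) in wildtype silica mice and 1.43 to 4.39 (median 3.28) in wildtype air mice. The groups overlapped, and neither log2 fold change passed (0.90 (SE 0.40), adjusted p = 0.230 in knockouts and 0.70 (SE 0.39), adjusted p = 0.462 in wildtypes). At 1 day, where it was not tested, medians were 4.20 in knockout silica mice, 2.99 in knockout air mice, 2.88 in wildtype silica mice and 3.36 in wildtype air mice. At 9 months it was 5.64 to 12.4 (median 10.6) in knockout silica mice and 5.56 to 29.7 (median 9.18) in knockout air mice, and 5.78, 6.04, 6.50, 7.76 and 9.91 in wildtype silica mice and 5.47, 5.71, 5.81, 7.46 and 28.5 in wildtype air mice. The highest values of both genotypes were in air mice, and the log2 fold changes were -0.37 (SE 0.38), adjusted p = 0.793 in knockouts and -0.56 (SE 0.45), adjusted p = 0.866 in wildtypes. Trem2 therefore did not pass the test at 3 months, where Gpnmb and Spp1 did, and was not tested at 1 day, where they also did. With low counts and SE of this size, a difference as large as its 3-month estimates could have been missed. What kept Trem2 from passing was not tested.

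Cd9 encodes a tetraspanin of the plasma membrane (chromosome 6, 125460266 to 125494791, minus strand). Across the 12 groups its group means differed by 1.45 times at most, the narrowest span of the 10 genes. At 3 months it was 222 to 298 (median 267) normalised CPM in knockout silica mice and 201 to 267 (median 252) in knockout air mice, and 269 to 312 (median 287) in wildtype silica mice and 214 to 278 (median 239) in wildtype air mice. The wildtype log2 fold change of 0.25 (SE 0.08), adjusted p = 0.0676 just missed the threshold, the knockout one was 0.12 (SE 0.08), adjusted p = 0.442, and at 1 day they were 0.04 (SE 0.10) in knockouts and 0.06 (SE 0.10) in wildtypes. The wildtype value of 3 months passed under 8 of 32 other settings, of which 24 left out 1 mouse each. At 9 months it was 299 to 358 (median 309.7) in knockout silica mice and 255 to 483 (median 328) in knockout air mice, and 248, 295, 304, 376 and 382 in wildtype silica mice and 271, 306, 315, 336 and 532 in wildtype air mice, all overlapping.

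Lgals3 encodes galectin-3, a lectin that binds galactosides on glycoproteins and is widely used as a macrophage marker (chromosome 14, 47367751 to 47386160, plus strand). At 1 day it was 93.8 to 133 (median 106) normalised CPM in knockout silica mice and 43.4 to 89.6 (median 71.9) in knockout air mice, and 77.5 to 110.0 (median 90.6) in wildtype silica mice and 62.9 to 77.3 (median 73.5) in wildtype air mice. Neither pair of groups overlapped, yet the log2 fold change passed in knockouts (0.61 (SE 0.11), adjusted p = 6.06e-04) and narrowly missed in wildtypes (0.37 (SE 0.11), adjusted p = 0.0525). The wildtype value passed under 14 of 32 other settings, of which 24 left out 1 mouse each. At 3 months the levels were 92.8 to 243 (median 121) in knockout silica mice and 55.6 to 94.6 (median 73.3) in knockout air mice, and 88.0 to 129 (median 102) in wildtype silica mice and 55.5 to 89.0 (median 66.4) in wildtype air mice. The ranges touched at their edges and both fold changes passed, at 0.91 (SE 0.16), adjusted p = 5.42e-04 in knockouts and 0.61 (SE 0.16), adjusted p = 0.0322 in wildtypes. The wildtype call was lost without any 1 of 6 single mice, with adjusted p of 0.054 to 0.1. At 9 months Lgals3 was 132 to 226 (median 165) in knockout silica mice and 113 to 359 (median 148) in knockout air mice, and 142, 164, 172, 172 and 263 in wildtype silica mice and 94.2, 107, 109, 129 and 329.8 in wildtype air mice. Air and silica mice overlapped, with log2 fold changes of -0.18 (SE 0.27) in knockouts and 0.23 (SE 0.30) in wildtypes.

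Among the lipid-handling members, Fabp5 encodes a cytosolic fatty acid binding protein (chromosome 3, 10012548 to 10016607, plus strand). At 1 day it was 49.3 to 68.1 (median 54.2) normalised CPM in knockout silica mice and 29.7 to 40.2 (median 36.5) in knockout air mice, and 42.7 to 62.6 (median 47.6) in wildtype silica mice and 34.1 to 44.7 (median 36.4) in wildtype air mice. The knockout groups were apart and the wildtype groups overlapped at the edge, with log2 fold changes of 0.61 (SE 0.11), adjusted p = 4.09e-04, in knockouts and 0.40 (SE 0.10), adjusted p = 0.0200 in wildtypes. The wildtype call at 1 day was lost without any 1 of 4 mice, with adjusted p of 0.057 to 0.12. At 3 months it was 38.8 to 74.4 (median 53.6) in knockout silica mice and 29.8 to 38.8 (median 34.8) in knockout air mice, and 37.6 to 69.0 (median 55.2) in wildtype silica mice and 24.2 to 35.3 (median 32.4) in wildtype air mice. Here the wildtype groups were apart and the knockout groups met at 38.8, and the log2 fold changes were 0.69 (SE 0.14), adjusted p = 0.00255 in knockouts and 0.84 (SE 0.14), adjusted p = 1.44e-04 in wildtypes. At 9 months it was 38.4 to 77.6 (median 57.4) in knockout silica mice and 28.4 to 77.3 (median 47.1) in knockout air mice, and 52.5, 52.5, 59.6, 66.9 and 67.5 in wildtype silica mice and 30.7, 35.4, 36.7, 47.3 and 102 in wildtype air mice. Neither fold change passed (0.24 (SE 0.25) in knockouts and 0.22 (SE 0.27) in wildtypes).

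Lpl encodes lipoprotein lipase, which releases fatty acids from triglyceride-rich lipoproteins (chromosome 8, 68880491 to 68907448, plus strand). It was 135 to 180.0 (median 155) normalised CPM in knockout silica mice and 97.6 to 138 (median 108) in knockout air mice at 1 day, and 105 to 195 (median 146) in wildtype silica mice and 72.9 to 101 (median 86.3) in wildtype air mice. The wildtype groups were apart, and the log2 fold changes were 0.49 (SE 0.11), adjusted p = 0.0105 in knockouts and 0.72 (SE 0.11), adjusted p = 4.89e-05 in wildtypes. Its 3-month levels were 101 to 223 (median 158) in knockout silica mice and 90.7 to 115 (median 108) in knockout air mice, and 137 to 198 (median 143) in wildtype silica mice and 90.0 to 192 (median 105) in wildtype air mice. Both pairs overlapped, and the fold change passed in knockouts (0.61 (SE 0.17), adjusted p = 0.0259) but not in wildtypes (0.31 (SE 0.16), adjusted p = 0.415). The knockout call was lost under 6 of 32 other settings, of which 24 left out 1 mouse each. Without replicate 3 it was lost at 0.48 (SE 0.15). Heart muscle, which also makes Lpl, was not evenly represented by its markers: 8 heart muscle markers summed to 221 to 482 normalised CPM in wildtype silica mice and 387 to 1233 in wildtype air mice at 3 months, with 4 of 8 called lower, and to 44.4 to 720.0 in knockout silica mice and 233 to 774 in knockout air mice, with 0 of 8 called. Their part in the Lpl values was not tested. At 9 months Lpl was 161 to 291 (median 226) in knockout silica mice and 112 to 358 (median 163) in knockout air mice, and 171, 191, 191, 196 and 263 in wildtype silica mice and 76.3, 98.1, 101, 124 and 347 in wildtype air mice, with log2 fold changes of 0.23 (SE 0.28) in knockouts and 0.43 (SE 0.31) in wildtypes that did not pass.

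Plin2 encodes perilipin 2, a coat protein of lipid droplets (chromosome 4, 86648386 to 86670060, minus strand), and it was not called in any silica comparison. At 1 day the levels were 88.4 to 140.1 (median 109) normalised CPM in knockout silica mice and 81.0 to 110.3 (median 103) in knockout air mice, and 63.3 to 106 (median 97.8) in wildtype silica mice and 82.4 to 90.6 (median 86.4) in wildtype air mice. At 3 months they were 95.6 to 224 (median 113) in knockout silica mice and 82.99 to 113 (median 94.1) in knockout air mice, and 84.3 to 117 (median 104) in wildtype silica mice and 73.3 to 125 (median 91.8) in wildtype air mice. All pairs overlapped, and the nearest to the threshold was the knockout comparison at 3 months (0.53 (SE 0.16), adjusted p = 0.0538), which fell to 0.30 (SE 0.13) without replicate 3. That comparison passed under 6 of 32 other settings, of which 24 left out 1 mouse each. At 9 months Plin2 was 125 to 164 (median 149) in knockout silica mice and 111 to 200.5 (median 138) in knockout air mice, and 133, 142, 149, 151 and 182 in wildtype silica mice and 115, 116, 124, 129.7 and 288 in wildtype air mice.

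Apoe encodes apolipoprotein E, which carries cholesterol out of macrophages and other cells (chromosome 7, 19696109 to 19699188, minus strand). At 1 day it was 182 to 342 (median 296) normalised CPM in knockout silica mice and 287 to 395 (median 324) in knockout air mice, and 241 to 313 (median 279) in wildtype silica mice and 276 to 369 (median 343) in wildtype air mice. Both medians were lower after silica, the ranges overlapped, and neither log2 fold change passed (-0.22 (SE 0.11), adjusted p = 0.459 in knockouts and -0.25 (SE 0.11), adjusted p = 0.287 in wildtypes). At 3 months the values were 382 to 645 (median 447) in knockout silica mice and 345 to 399 (median 359) in knockout air mice, and 357 to 435 (median 385) in wildtype silica mice and 370.3 to 475 (median 389) in wildtype air mice. Apoe was higher in knockout silica mice (0.35 (SE 0.09), adjusted p = 0.0133), also without replicate 3 (0.24 (SE 0.07)), and was not called in wildtypes (-0.03 (SE 0.09), adjusted p = 0.936). The knockout call was lost when the 2 groups were fitted alone (edgeR adjusted p = 0.059). At 9 months it was 336 to 409 (median 391) in knockout silica mice and 361 to 432 (median 392) in knockout air mice, and 358, 368, 412, 423 and 446 in wildtype silica mice and 426, 445, 462, 468 and 492 in wildtype air mice. No air mouse of 9 months stood far from its group.

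General macrophage markers that are not members were in part higher after silica too. The 8 general macrophage markers (Cd68, Adgre1, Csf1r, Lyz2, Fcgr1, Mertk, Cd14 and Itgam) summed at 1 day to 3558 to 4476 normalised CPM in knockout silica mice and 2850 to 3352 in knockout air mice, and to 3033 to 3529 in wildtype silica mice and 2492 to 2802 in wildtype air mice. At 3 months the sums were 3888 to 4706 in knockout silica mice and 2869 to 3595 in knockout air mice, and 3159 to 4386 in wildtype silica mice and 2758 to 3101 in wildtype air mice. In each of these 4 comparisons 3 of 7 tested were higher and 0 lower, and the medians differed by 1.18 to 1.32 times. Fcgr1 was at 0 in 1 library and the other 7 in none. Lyz2 made up a median of 90% of the sum, and without it the medians were 1.07 times as high in knockout silica mice as in knockout air mice and 1.05 times in wildtypes at 1 day, and 1.19 and 1.16 times at 3 months. Per 1000 normalised CPM of this sum, the median of Mmp12 at 3 months was 8.72 in knockout silica mice and 0.838 in knockout air mice, 10.4 times as high, and 12.0 in wildtype silica mice and 1.23 in wildtype air mice, 9.78 times as high. For Spp1 the ratio was 2.69 in knockouts and 2.16 in wildtypes, and for Gpnmb 2.07 and 2.40; for all 3 genes every silica mouse was above every air mouse on this scale. At 3 months the ratio was 1.24 in knockouts and 1.42 in wildtypes for Fabp5, 1.23 and 1.26 for Lgals3, and 0.801 and 0.986 for Cd9. For Lpl it was 1.15 in knockouts and 1.17 in wildtypes, and for Apoe 0.990 and 0.828. With Lyz2 left out of the sum, the ratio was 12.3 in knockouts and 10.4 in wildtypes for Mmp12, 1.37 and 1.51 for Fabp5 and 1.56 and 1.37 for Lgals3. The silica and air mice overlapped for Fabp5 and Lgals3 on that scale. At 1 day, with Lyz2 in the sum, the ratio was 4.11 in knockouts and 3.12 in wildtypes for Mmp12. It was 1.45 and 1.56 for Spp1 and 1.525 and 1.52 for Gpnmb. For Fabp5 it was 1.25 and 1.07, for Lgals3 1.19 and 1.02, and for Lpl 1.06 and 1.30. Silica and air mice overlapped in these values of 1 day, except for Spp1 and Gpnmb in wildtypes. Resident alveolar macrophage markers summed to 793 to 1736 in knockout silica mice and 654 to 779.7 in knockout air mice at 3 months, with 4 of 8 higher and 2 lower. In wildtypes they summed to 685 to 1165 in silica mice and 717 to 813 in air mice, with 2 of 8 higher and 3 lower. Dendritic cell markers were higher for 5 of 6 in knockouts and 4 of 6 in wildtypes at 3 months, and for 0 of 4 in either genotype at 1 day. Neutrophil markers summed to 74.5 to 185 in knockout silica mice and 75.6 to 117 in knockout air mice at 1 day, with 0 of 5 called, and to 87.3 to 132 in wildtype silica mice and 60.2 to 84.5 in wildtype air mice, with 2 of 5 higher. Their medians were 1.57 times as high after silica in knockouts and 1.62 times in wildtypes. The part of cell numbers in the member results was not tested.

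**Figure D3:**
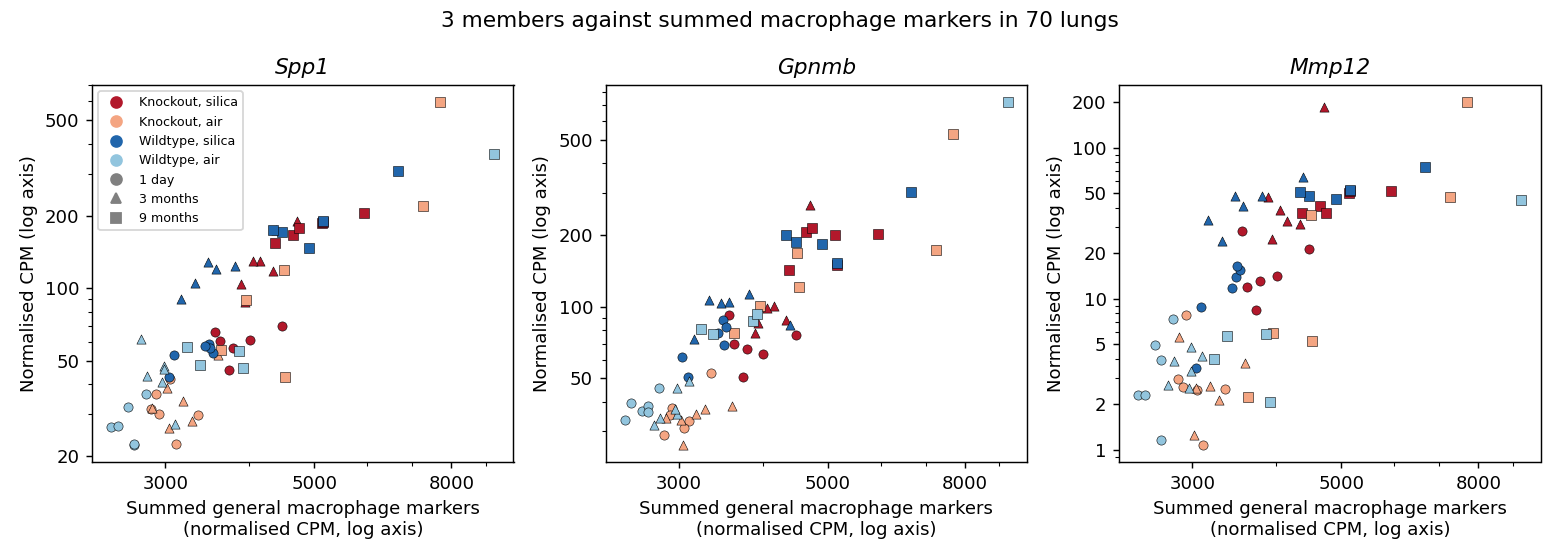
Spp1, Gpnmb and Mmp12 against the summed level of the 8 general macrophage markers, both in normalised CPM on log axes, with 1 point per mouse, colours for genotype and exposure and shapes for time. For Mmp12, silica mice of 3 months (triangles) lie above all air mice of 1 day and 3 months, while knockout air replicate 3 of 9 months, at 36.0, lies among them. The 3 air mice of 9 months with sums of 7259 to 9273 lie to the right of most other mice.

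Knockout and wildtype mice under the same exposure were compared to ask whether loss of Slc26a4 alters these genes. In silica mice 0 of 9 members at 1 day, 0 of 10 at 3 months and 0 of 10 at 9 months passed edgeR's test, where 0.00796%, 0.174% and 0% of all genes did. In air mice the counts were 0 of 9, 0 of 10 and 0 of 10, against 0.0478%, 0.142% and 0.0156%. An unadjusted p under 0.05 was reached by 2, 3 and 0 members in silica mice and by 1, 0 and 2 in air mice, in the order of the times. DESeq2 and voom also called 0 in each of the 6 comparisons. With the compared groups fitted alone, edgeR called 1 member in air mice of 1 day. The silica effect itself, knockout minus wildtype, was called for 0 members at each time, and for 0% of all genes; an unadjusted p under 0.05 was reached by 0, 1 and 1 members. At 3 months the difference in log2 effect was 0.32 (SE 0.25) for Spp1, with a 95% interval of -0.18 to 0.81, and 0.48 (SE 0.32) for Gpnmb, with an interval of -0.15 to 1.11. For Mmp12 the interval was wide, -0.95 to 2.47. Apoe had the smallest unadjusted p of these differences at 3 months, at 0.39 (SE 0.12) with adjusted p = 0.459.

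Times were compared within each group, in 1 fit of all 70 libraries and 13252 genes. A difference between times cannot be told apart from the age of the mice or the handling of the lungs taken at each time. In air mice most of the 10 genes were higher at 9 months than at 3 months in both genotypes. In knockouts 9 of 10 were called, all but Apoe, where 9.8% of all genes were called higher. In wildtypes 7 of 10 were called, where 6.34% were. Gpnmb was 77.9 normalised CPM or more in every knockout air mouse of 9 months and 38.2 or less in every one of 3 months; in wildtypes the lowest mouse of 9 months had 77.1 and the highest of 3 months 48.9. Its log2 fold changes were 2.51 (SE 0.37), adjusted p = 1.03e-06 in knockouts and 2.46 (SE 0.37), adjusted p = 4.66e-06 in wildtypes. Spp1 rose by 2.40 (SE 0.38) in knockouts and 1.40 (SE 0.38) in wildtypes, Trem2 by 1.91 (SE 0.39) and 1.65 (SE 0.39), and Lgals3 by 1.38 (SE 0.21) and 1.17 (SE 0.22). Mmp12 rose by 4.11 (SE 0.70) in knockout air mice, adjusted p = 1.47e-05, and its change of 1.88 (SE 0.80) in wildtypes had an adjusted p of 0.119. Without the 3 high air mice the Mmp12 value in knockouts was 2.11 (SE 0.65), adjusted p = 0.0313, and voom with all mice gave 1.75, adjusted p = 0.0580. Spp1 was then 1.10 (SE 0.21) in knockouts and 0.24 (SE 0.21) in wildtypes, adjusted p = 0.601, Trem2 1.24 (SE 0.35) and 0.83 (SE 0.36), adjusted p = 0.172 in wildtypes, and Gpnmb 1.78 (SE 0.22) in knockouts. The count without these mice was 7 of 10 in knockouts, where 3.84% of genes were called higher, with Fabp5 and Lpl lost. It was 3 of 10 in wildtypes, against 2.9%, where Gpnmb (1.14), Cd9 (0.34) and Lgals3 (0.69) were still called. At 3 months against 1 day 0 of 10 members were called in air mice of either genotype by edgeR and DESeq2, where 0% of genes were called in knockouts and 0.0302% in wildtypes, and voom called 1 in wildtypes. An unadjusted p under 0.05 was reached by 0 members in knockouts and 2 in wildtypes.

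Silica mice were compared between times in the same fit, with the same limit on what a difference between times can mean. At 3 months against 1 day, Apoe rose in knockouts (0.73 (SE 0.10), adjusted p = 1.24e-06) and in wildtypes (0.47 (SE 0.10), adjusted p = 0.00736), and Mmp12 in knockouts (1.92 (SE 0.50), adjusted p = 0.0394), or 2 of 10 members in knockouts against 0.453% of genes called higher and 1 of 10 in wildtypes against 0.755%. The Mmp12 call was lost without knockout silica replicate 3 of 1 day and of 3 months, at 1.33 (SE 0.54), adjusted p = 0.404. At 9 months against 3 months, Lgals3 rose in wildtypes (0.79 (SE 0.22), adjusted p = 0.0407; 1 of 10 against 0.551%) and Apoe fell in knockouts (-0.31 (SE 0.09), adjusted p = 0.0307; 1 of 10 against 3.74% called lower). The fall of Apoe was -0.20, adjusted p = 0.131, without those 2 knockout silica mice, and the call was also lost with voom. The rise of Lgals3 was 0.63, adjusted p = 0.0125, without the 3 high air mice and wildtype silica replicate 5. The silica effect of 3 months minus that of 1 day was called for 0 of 10 members in either genotype by edgeR, DESeq2 and voom, where 0% of genes were by edgeR in each; an unadjusted p under 0.05 was reached by 1 member in knockouts and 0 in wildtypes. The silica effect of 9 months minus that of 3 months was negative and called for 4 of 10 members in knockouts, where 0.724% of genes were called lower: -1.88 (SE 0.50) for Spp1, -1.88 (SE 0.49) for Gpnmb, -4.56 (SE 0.85) for Mmp12 and -1.07 (SE 0.29) for Lgals3. Without the 3 high air mice 0 of these 4 calls were left. In wildtypes 0 of 10 members were called for this difference, where 0% of genes were, with 4 members at an unadjusted p under 0.05 and 0 called by DESeq2 and by voom.

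At 9 months 0 of 10 members were called between silica and air mice in either genotype by edgeR and DESeq2, where 0.125% of genes were called higher in knockouts and 0.0234% in wildtypes; an unadjusted p under 0.05 was reached by 0 members in knockouts and 2 in wildtypes, and voom with sample weights called 1 and 2. The air mice themselves were heterogeneous. Wildtype air replicate 5 was the highest of its group in 10 of 10 members, with 364 normalised CPM of Spp1, 722 of Gpnmb, 44.8 of Mmp12 and 28.5 of Trem2. The library labelled knockout air replicate 4 was the highest of its group in 9 of 10, with 596 of Spp1, 529 of Gpnmb, 200.5 of Mmp12 and 29.7 of Trem2. Knockout air replicate 5 had 221 of Spp1, 173 of Gpnmb, 47.2 of Mmp12 and 263 of Lgals3. Against the mean of 3-month air mice of its genotype, Mmp12 was 67.1 times as high in the library labelled knockout air replicate 4, 15.8 times in replicate 5, 12.1 times in replicate 3 and 12.6 times in wildtype air replicate 5. Silica mice of 9 months were 12.4 to 21.0 times as high on this scale.

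**Figure D4:**
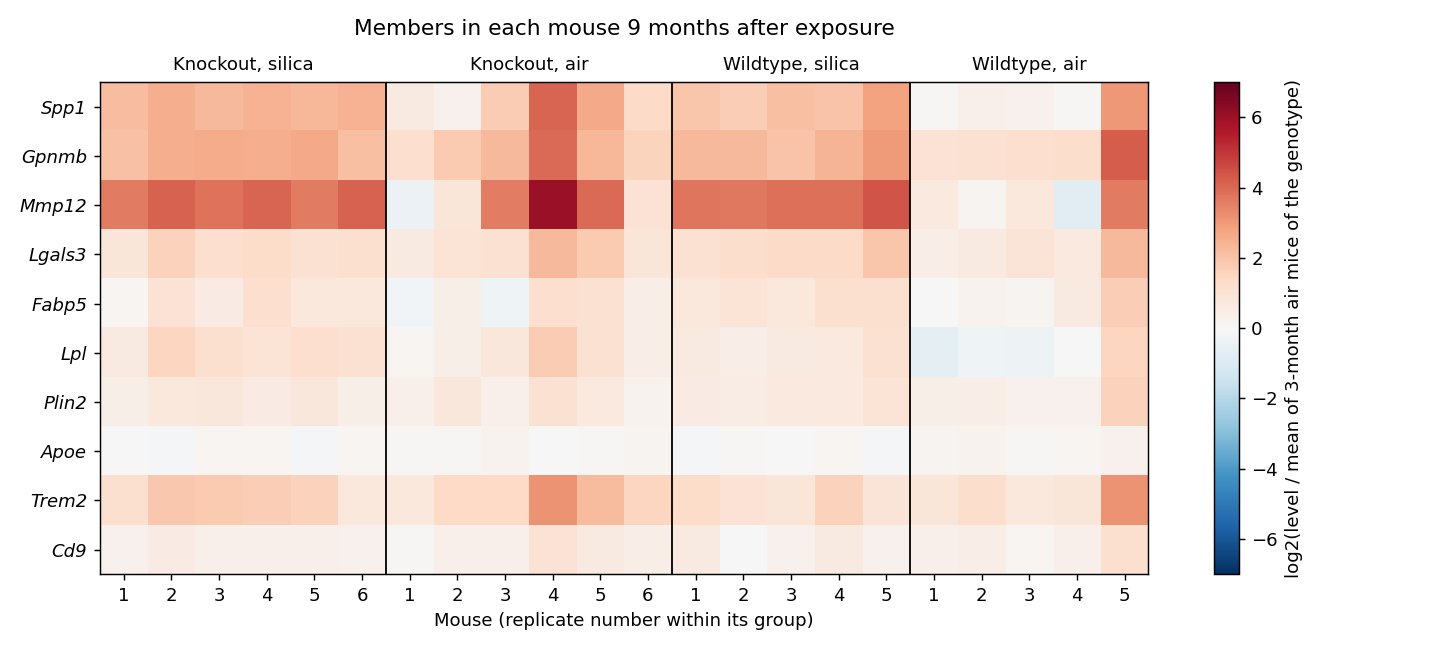
Level of each of the 10 genes (rows) in each mouse of 9 months (columns, by group), as the log2 of its ratio to the mean of the 3-month air mice of its genotype, on a colour scale with red above and blue below 0. The darkest cell is Mmp12 in the library labelled knockout air replicate 4, at 67.1 times that mean. For Mmp12 the silica mice lie at 12.4 to 21.0 times that mean.

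These 3 air mice also differed in markers of other cells. Their general macrophage markers summed to 9273 (wildtype air replicate 5), 7690 (the library labelled knockout air replicate 4) and 7259 normalised CPM (knockout air replicate 5), against 3235 to 4522 in the other 8 air mice of 9 months. Their resident alveolar macrophage markers summed to 8758, 7259 and 3378, against 1017 to 1452. Chil3, a chitinase-like protein of alveolar macrophages, made up most of these sums, at 8011, 6583 and 2997, against 673 to 1083; without it they were 747, 676 and 381, against 343 to 424. Alveolar type 1 cell markers summed to 2699, 2560 and 3863, against 4088 to 5138, and endothelial markers to 1223, 1416 and 1738, against 1824 to 2323. Alveolar type 2 cell markers were 14729, 14800 and 15627, against 11343 to 13968. With these 3 mice left out, a choice made after their values were seen, the log2 fold changes of silica over air mice were 1.88 (SE 0.34) in knockouts and 3.63 (SE 0.44) in wildtypes for Mmp12, 1.26 (SE 0.19) and 1.94 (SE 0.21) for Spp1, and 0.68 (SE 0.16) and 1.26 (SE 0.18) for Gpnmb. Leaving out air mice that are high in the members pushes these values up, so they describe the remaining mice and are no test of silica. Wildtype silica replicate 5, high among the silica mice, was kept there; with it left out as well the wildtype values were 3.50 for Mmp12, 1.73 for Spp1 and 1.09 for Gpnmb. Nothing in the labels sets these mice apart, and what raised their levels was not tested.

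**Figure D5:**
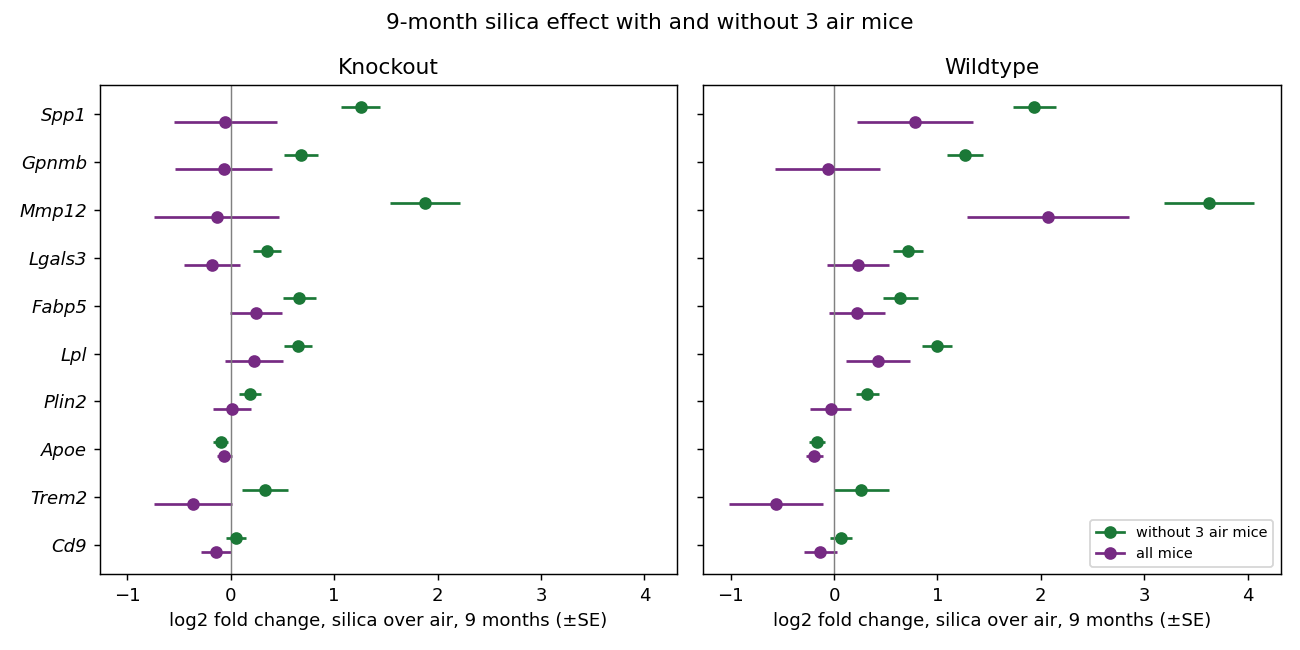
Log2 fold change of silica over air mice at 9 months for the 10 genes with all mice and without the 3 air mice, in knockouts and wildtypes, with SE bars. The mice left out are high in these genes, so the second set of values is a description. For Mmp12 in knockouts the value is -0.14 with all mice and 1.88 without the 3.

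At 3 months 1 silica mouse stood apart from its group. Knockout silica replicate 3 was the highest of its group in 9 of 10 members, with 267 normalised CPM of Gpnmb and 186 of Mmp12. Its general macrophage markers summed to 4706, against 3888 to 4335 in the other 5 mice of the group. Its resident alveolar macrophage markers summed to 1737, against 793 to 1114, of which Chil3 was 1409, against 394 to 701, and its monocyte markers to 1966, against 1090 to 1369. Its airway markers summed to 4727, against 9425 to 11534, and its heart muscle markers to 44.4, against 298 to 720. Its endothelial markers were above the others, at 2830 against 2243 to 2571. Its alveolar type 2 cell markers were below them, at 11712 against 12043 to 13166. The 3 air mice of 9 months differed the other way in both of these lists. Its alveolar type 1 cell markers were low as in the 3 air mice, at 2482 against 3749 to 4006. Airway markers were also low in the library labelled knockout air replicate 4 (9161) and knockout air replicate 5 (8337), against 12471 to 20929, but not in wildtype air replicate 5 (14540). Without it and 1 knockout silica mouse of 1 day, also left out after values were seen, the members called at 3 months in knockouts were 6 of 10, where 2.27% of genes were called higher.

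The span of the 12 group means differed between the genes. Mmp12 was highest in knockout silica mice of 3 months, at 60.1 ± 62.1 normalised CPM (SD, n = 6), and lowest in knockout air mice of 3 months, at 2.99 ± 1.498 (SD, n = 6), a span of 20.1 times. The highest mean and the span rest on replicate 3, at 186. The median of that group was 35.8, and the next mean was 54.2, in wildtype silica mice of 9 months. The span was 7.15 times for Spp1, 6.21 for Gpnmb, 5.12 for Trem2, 2.82 for Lgals3, 2.58 for Lpl, 1.93 for Fabp5, 1.79 for Plin2 and 1.66 for Apoe. Neighbouring groups in each order overlapped in their ranges at all 11 steps for 9 of the genes. For Gpnmb 10 of 11 steps overlapped, and the exception was the step between knockout silica mice of 1 day, at 50.5 or more, and wildtype air mice of 3 months, at 48.9 or less. Per kilobase of exon, Apoe and Cd9 were the most abundant, with group means of 132 to 219 and 119 to 172 normalised CPM per kb, and Mmp12 (0.413 to 8.30) and Trem2 (0.512 to 2.62) the least. Spp1 covered 16.9 to 121 on this scale and Gpnmb 5.24 to 32.5. Trem2, not tested at 1 day, was left out when the 6 silica effects of pairs of members were compared. Those of Cd9 and Plin2, neither called in any silica comparison, were the most alike, with a root mean square difference of 0.20 on the log2 scale. Those of Spp1 and Gpnmb differed by 0.35.

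Other genes of the same programmes were taken from lists, which were chosen with earlier results of these data known. Of all genes, 1.7% were higher after silica in knockouts and 1.95% in wildtypes at 1 day, and 3.02% and 2.24% at 3 months. The shares called lower were 0.223% and 0.422% at 1 day and 1.78% and 0.72% at 3 months. Of 20 further scar-type and lipid-associated macrophage genes, 18 were tested; 6 were higher after silica in each genotype at 1 day, and 13 in knockouts and 8 in wildtypes at 3 months, with 0 lower. Ctsk, a lysosomal protease known for matrix breakdown in bone, had the largest values, with log2 fold changes of 2.66 (SE 0.16, adjusted p = 1.31e-13) in knockouts and 2.67 (SE 0.15, adjusted p = 3.45e-14) in wildtypes at 3 months (edgeR). Ctsz, another cathepsin, rose by 0.85 and 0.70, and Itgax, an integrin of alveolar macrophages and dendritic cells, by 0.81 and 0.73. Of 6 genes of TREM2 signalling, 0 were called at 1 day and 1 in each genotype at 3 months, Vav1, a signalling protein of blood cells (0.43 in knockouts and 0.48 in wildtypes). Their median log2 fold change at 3 months was 0.30 in knockouts and 0.19 in wildtypes, against a median within 0.01 of 0 for all genes.

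Of 16 genes of cholesterol export and sensing tested, Ch25h, which makes 25-hydroxycholesterol, rose in all 4 comparisons, by 2.03 in knockouts and 1.39 in wildtypes at 1 day and 2.55 and 2.20 at 3 months. Abca1, the cholesterol exporter that loads apolipoproteins, fell in knockouts at 1 day (-0.45 (SE 0.10, adjusted p = 0.00714)), and Pltp, the phospholipid transfer protein, in knockouts at 3 months (-0.45 (SE 0.09, adjusted p = 0.00199)). Counts were 1 higher and 1 lower in knockouts and 2 higher in wildtypes at 1 day, and 1 higher and 1 lower in knockouts and 1 higher in wildtypes at 3 months. Among 11 lipid uptake receptors, 3 were higher in knockouts and 2 in wildtypes at 1 day, and 4 and 3 at 3 months, with 1 lower in each genotype at 3 months. Marco, a scavenger receptor of alveolar macrophages that binds silica, rose by 1.99 in knockouts and 1.51 in wildtypes at 3 months, and Cd68, a lysosomal scavenger receptor, by 0.66 and 0.82. Vldlr, the very low density lipoprotein receptor, fell by 0.27 in knockouts and by 0.38 in wildtypes.

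The partners of Lpl and Plin2 gave few calls. Of 5 lipoprotein lipase partners, Gpihbp1, which anchors the enzyme on capillaries, fell in wildtypes at 3 months (-0.46 (SE 0.10, adjusted p = 0.00740)) and the other 4 were not called. Of 14 lipid droplet genes tested at 3 months, 0 were called in knockouts and 2 were lower in wildtypes: Cidec (-1.79 (SE 0.33, adjusted p = 7.97e-04)), a droplet fusion protein, and Plin4 (-1.16 (SE 0.29, adjusted p = 0.0203)), a perilipin; both are known from fat cells. The 8 fat cell markers, of which Cidec is 1, summed to 16.6 to 24.4 normalised CPM in wildtype silica mice and 26.6 to 132 in wildtype air mice at 3 months, and their part in these calls was not tested. At 1 day 1 of 13 droplet genes was lower in wildtypes, again Cidec, and 0 were called in knockouts. Of 5 other fatty acid binding proteins, Fabp1 was lower at 3 months in knockouts (-1.03 (SE 0.29, adjusted p = 0.0313)) and wildtypes (-1.22 (SE 0.32, adjusted p = 0.0284)), so that Fabp1 and Fabp5 moved in opposite directions.

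For the secreted members, 10 osteopontin receptors were tested. Cd44 was higher in all 4 comparisons of 1 day and 3 months, by 0.56 in knockouts and 0.57 in wildtypes at 1 day and 0.40 and 0.38 at 3 months. Itgb6, an epithelial integrin subunit, rose at 1 day (0.72 in knockouts and 0.80 in wildtypes), and Itga8 fell in wildtypes at 3 months (-0.26). The remaining receptors were not called. Of 8 other matrix metalloproteinases at 1 day and 10 at 3 months, Mmp19 was higher in all 4 comparisons, by 0.93 in knockouts and 0.82 in wildtypes at 3 months, and Mmp25, a protease of neutrophils, was higher in wildtypes at 3 months (1.38). Of 5 protease inhibitors, Timp1 rose in knockouts at 1 day (1.36) and in both genotypes at 3 months (1.35 in knockouts and 2.36 in wildtypes), and Slpi in wildtypes at 1 day (0.72) and both genotypes at 3 months (0.93 and 0.68). Of 5 other galectins and galectin ligands, Lgals3bp was higher in knockouts at 1 day (0.57) and Lgals1 in knockouts at 3 months (0.51). Of 10 other tetraspanins, 0 were called at 1 day; at 3 months 1 was higher and 1 lower in knockouts (Cd63, 0.49, and Tspan13, -0.28) and 2 were higher in wildtypes, among them Cd53 (0.63).

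Regulators and growth factors of macrophages were read last. Of 12 regulators, Tfec, a macrophage relative of MITF, was higher in wildtypes at 1 day (1.03), Cebpb in knockouts at 3 months (0.63) and Spi1, which encodes PU.1, in wildtypes at 3 months (0.49). Of 8 growth factors and receptors tested, 3 were higher in each genotype at 1 day, and 4 in knockouts and 3 in wildtypes at 3 months. Csf1, the macrophage growth factor, rose by 0.78 in knockouts and 0.52 in wildtypes at 1 day, and Csf2, the growth factor of alveolar macrophages, by 1.805 and 1.74. Csf2rb, a subunit of its receptor, rose by 1.07 in knockouts and 0.64 in wildtypes at 3 months. At 9 months 0 of the 133 list genes tested were called in either genotype by edgeR, with 12 at an unadjusted p under 0.05 in knockouts and 9 in wildtypes. Of all 12826 genes, 16 were called higher and 7 lower in knockouts, and 3 and 0 in wildtypes. The count of 0 is near that share and is no result about the lists. The 5 relatives of Spp1 and Gpnmb (Ibsp, Dmp1, Dspp, Mepe and Pmel) were too low to be tested at any time.

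The genes most like each of 6 members were found by the root mean square difference between their 6 silica effects (2 genotypes at 3 times) on the log2 scale, among 12381 genes. Spp1 was closest to Clec4d (0.24), Clec4n (0.26) and Mgl2 (0.28), and Gpnmb to Clec4d (0.21), Lhfpl2 (0.25) and Lilr4b (0.26). Clec4d and Clec4n encode C-type lectin receptors of myeloid cells. Mmp12 had no close neighbour, its nearest being Ccl17 (0.97), Wfdc17 (1.01) and Chil1 (1.06); Ccl17 encodes a chemokine of dendritic cells and macrophages. Fabp5 was closest to Samsn1 (0.11), Cd33 (0.11) and Tnfaip2 (0.12), Lgals3 to Brinp1 (0.10), Gla (0.12) and Malt1 (0.13) and Lpl to AW112010 (0.09), Ifit3 (0.09) and Pla2g4f (0.11). These are descriptions over 6 values, and the values of all genes come from the same mice.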

How the data were processed

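The 70 lung libraries were made from total RNA after ribosomal RNA depletion with a stranded kit, per the labels' protocols. The submitters' processing notes name bcl2fastq 2.19, Trimmomatic 0.35, HISAT2 2.1.0, Cufflinks, SAMtools 1.8, HTSeq 0.11.2 and mm10, without role or order. The annotation and the strand setting of the counting are not given in the sources used here. The authors deposited 1 table of raw read counts per gene, not normalised, with 24439 rows; 19 rows that repeat a symbol were left out.

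Counts were tested with edgeR 4.0.16 in R 4.3.3 (filterByExpr, TMM scaling, quasi-likelihood test), with the 4 groups of each time in 1 fit (24, 24 and 22 libraries; 12558, 12647 and 12826 genes). Times were compared in a fit of all 70 libraries (13252 genes). p-values were adjusted over all genes of a fit by Benjamini-Hochberg, and the threshold was 0.05. The SE of a log2 fold change is its size divided by the square root of F. Normalised CPM are counts per 1000000 of TMM-scaled library size over 70 libraries, and per kb divides by exon length. The code was tested on simulated data. Groups came from the sample labels; the mice are separate animals, numbered within a group in accession order. Alternatives used DESeq2 1.42.0, limma 3.58.1 (voom with sample weights), no filter or a mean of at least 1 CPM as the filter, DESeq2 size factors and other sets of libraries. Each mouse was also left out in turn, in the fit of its own time only.

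The members and the gene lists were chosen with earlier results of these data known. Genes named from a list are up to 3 per list with the smallest p in a silica comparison among those past the threshold; genes like a member are the 3 nearest of mean at least 1 CPM, for members past the threshold in at least 3 silica comparisons.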

Additional observations from a re-analysis of the deposited data

Results flagged for a closer look

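Of 120 combinations of gene and group, 29 had 1 mouse whose gap to its nearest neighbour was large for the range of its group, by Dixon's test; chance flags about 1 in 20 groups. The 29 came from 11 libraries. Wildtype air replicate 5 of 9 months was the high mouse for 9 genes, with 364 normalised CPM of Spp1, 722 of Gpnmb, 102 of Fabp5, 28.5 of Trem2, 44.8 of Mmp12, 532 of Cd9, 330 of Lgals3, 347 of Lpl and 288 of Plin2. The library labelled knockout air replicate 4 of 9 months was the high mouse for Spp1 (596), Gpnmb (529) and Mmp12 (200.5). Knockout silica replicate 3 of 3 months was the high mouse for Apoe (645), Gpnmb (267), Lgals3 (243), Mmp12 (186) and Trem2 (16.5). Wildtype silica replicate 5 of 9 months was the high mouse for Lgals3 (262.5), Lpl (262.5), Mmp12 (74.7) and Spp1 (309).

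The other flags were spread over single libraries. Wildtype silica replicate 2 of 1 day was the low mouse for Spp1 (42.8) and Plin2 (63.3). The high mouse was at 475 for Apoe in wildtype air mice of 3 months, and for Cd9 at 358 in knockout silica mice of 9 months and 299 in wildtype silica mice of 1 day. It was at 52.7 for Gpnmb and 7.81 for Mmp12 in knockout air mice of 1 day, and at 198 for Lpl in wildtype silica mice of 3 months.

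In knockouts the silica effect of 9 months minus that of 3 months differed past the threshold of edgeR's test for 4 genes, by -1.88 for Spp1, -1.88 for Gpnmb, -4.56 for Mmp12 and -1.07 for Lgals3 on the log2 scale. Without the 3 high air mice of 9 months 0 of the 4 passed.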

How the results depend on the processing

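Of 584 counts of members recomputed under other settings, 551 stayed within 1.5 times of the value in the report and 33 did not. None of the 33 came from leaving out 1 mouse. Single mice were left out only in the fit of their own time, so no comparison between times was recomputed without 1 mouse. For those comparisons the dependence on 1 mouse was not tested. Counts of 0 that stayed at 0 are among the 551, and many counts in the report are 0. With all 70 libraries in 1 fit, silica over air at 1 day gave 0 members in knockouts (6 in the report) and 0 in wildtypes (5). With the compared groups fitted alone, knockout over wildtype air mice of 1 day gave 1 (0). Voom with sample weights gave 1 in knockouts and 2 in wildtypes for silica over air at 9 months (0 and 0). It also gave 3 for 3 months over 1 day and 3 for 9 months over 3 months in wildtype silica mice (1 and 1), 5 for 9 months over 3 months in knockout silica mice (1), 1 for 3 months over 1 day in wildtype air mice (0) and 0 for the silica effect of 9 months minus 3 months in knockouts (4). The DESeq2 Wald test gave 1 for 3 months over 1 day in knockout silica mice (2) and 2 for 9 months over 3 months in wildtype silica mice (1). The cause of these changes was not tested.

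Without the 3 air mice of 9 months, a setting chosen after seeing the data, silica over air at 9 months gave 5 in knockouts and 6 in wildtypes. In knockout silica mice 3 months over 1 day gave 4 and 9 months over 3 months 4. In wildtype silica mice these gave 3 and 4, 9 months over 3 months in wildtype air mice gave 3 (7), and the silica effect of 9 months minus 3 months in knockouts gave 0. With wildtype silica replicate 5 of 9 months left out as well, silica over air at 9 months gave 5 in each genotype, 3 months over 1 day gave 4 in knockout and 3 in wildtype silica mice, 9 months over 3 months gave 4 and 2 in them and 3 in wildtype air mice, and the silica effect of 9 months minus 3 months in knockouts gave 0. Without knockout silica replicate 3 of 1 day and of 3 months, also chosen after seeing the data, 3 months over 1 day gave 1 in knockout and 2 in wildtype silica mice, 9 months over 3 months gave 2 in each, and the silica effect of 9 months minus 3 months in knockouts gave 1. The share of all genes called is not set beside the counts of this section. They therefore describe the settings and are no result about the members.

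Single log2 fold changes of silica over air changed sign mainly at 9 months. Without the 3 air mice they were 1.26 for Spp1, 0.68 for Gpnmb, 0.33 for Trem2, 1.88 for Mmp12, 0.049 for Cd9 and 0.35 for Lgals3 in knockouts, and 1.26 for Gpnmb, 0.26 for Trem2, 0.068 for Cd9 and 0.32 for Plin2 in wildtypes. Without wildtype silica replicate 5 as well they were 1.25, 0.68, 0.33, 1.88, 0.046 and 0.35 for these genes in knockouts, and 1.09, 0.32, 0.099 and 0.25 in wildtypes. The air mice left out are high in these genes, so the values without them are no test of silica. With voom they were 1.08 for Spp1, 0.53 for Gpnmb, 0.13 for Trem2, 2.22 for Mmp12 and 0.17 for Lgals3 in knockouts, and 0.96 for Gpnmb, 0.051 for Trem2 and 0.21 for Plin2 in wildtypes. Cd9 in knockouts at 1 day was -0.027 without knockout silica replicate 3. With each mouse left out in turn, the ranges at 9 months in knockouts were -0.26 to 0.78 for Spp1, -0.24 to 0.54 for Gpnmb, -0.41 to 1.22 for Mmp12, -0.54 to 0.075 for Trem2, -0.30 to 0.092 for Lgals3 and -0.049 to 0.13 for Plin2. In wildtypes at 9 months they were -0.26 to 1.27 for Gpnmb, -0.74 to 0.26 for Trem2, -0.21 to 0.067 for Cd9 and -0.12 to 0.32 for Plin2. Cd9 in knockouts at 1 day ranged over -0.027 to 0.12 and Apoe in wildtypes at 3 months over -0.061 to 0.022. Of the values of single members, 542 of 576 at 1 day, 609 of 638 at 3 months and 557 of 618 at 9 months kept their direction and their side of the threshold.

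No paired analysis was possible because the replicate numbers follow accession order and only name the mice. Trem2 and Mmp12 rest on counts as low as 2 in a library, so small differences in them were not detectable. The 9-month comparisons have 5 or 6 mice a group, and several of their silica over air values changed sign without 3 air mice.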
